A study of Homo sapiens with 47 samples.

Results

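The immediate early genes examined here are 10 genes taken by symbol from the gene count table: FOS, FOSB, FOSL1, JUN, JUNB, ATF3, EGR1, IER2, MYC and SNAI2. All 10 were found among the 58395 genes of the table, and all 10 passed the filter on low counts that left 28025 genes for testing. They were chosen as rapidly induced genes whose transcription is limited at elongation. Total RNA depleted of ribosomal RNA was sequenced and compared between 3 libraries of wild-type HEK293T cells, a human embryonic kidney line that carries a viral large T antigen, and 3 libraries of an EAF1-mutant HEK293T line. In the mutant line, genome editing had replaced a short run of residues near the C terminus of EAF1 with alanines, at the site through which EAF1 binds the Mediator subunit MED26. The mutant line was a single clone, so what the mutation did and what set this clone apart from its parent cannot be told apart. No stimulation of the cells is described in the sources, so the values are levels in growing cells and not an induction. Each library held between 52541541 and 66611451 counts.

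Immediate early genes are switched on within minutes of a growth or stress signal without new protein synthesis, and many of them encode transcription factors such as the FOS and JUN subunits of AP-1. At many of them RNA polymerase II initiates and then pauses close to the promoter, and its release depends on elongation factors that include the super elongation complex. EAF1 is a subunit that this complex shares with the little elongation complex, which acts at small nuclear RNA and histone genes.

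The 10 genes did not move as a block. In EAF1-mutant cells, FOS, EGR1, IER2 and MYC were higher by 1.57-fold to 1.87-fold, FOSL1 was at 0.503 times its wild-type level, and SNAI2 was at 0.106 times its wild-type level. JUN, JUNB, FOSB and ATF3 did not pass both thresholds, which were an adjusted p under 0.01 in edgeR's quasi-likelihood test and a change of more than 0.5 on the log2 scale. Of the 10 genes, 4 were higher and 2 were lower past both, against 11.0% higher and 9.36% lower among the 28025 tested genes. On the adjusted p alone 7 of the 10 passed, against 41.5% of tested genes. The 3 libraries of one group lay wholly above those of the other for 9 of the 10, against 57.3% of tested genes, so separation of this kind was common in the table. The median log2 fold change was 0.39 over the 10 genes and 0.01 over all tested genes. No test compared the 10 genes with other genes as a set.

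**Figure D1:**
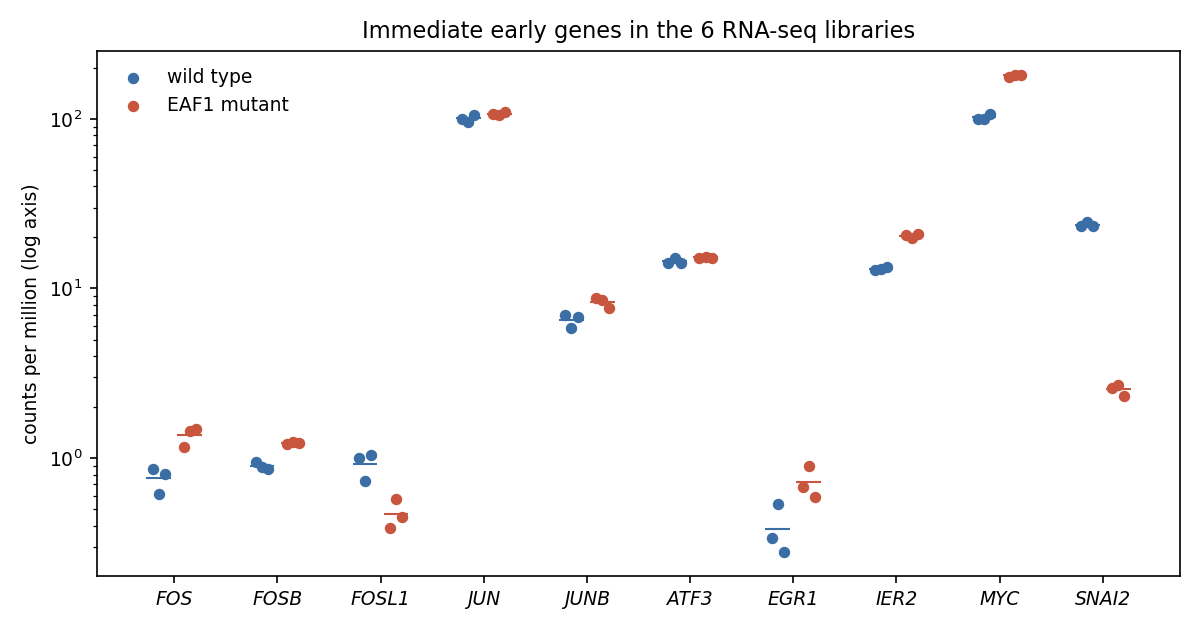
Normalised read counts (CPM, log axis) of each of the 10 immediate early genes in the 3 wild-type and 3 EAF1-mutant libraries. Points are libraries and bars are group means; SNAI2 lies between 23.3 and 24.6 CPM in wild-type and between 2.32 and 2.70 CPM in EAF1-mutant libraries.

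Markers of the labelled line were present. Levels are given in CPM, the normalised counts scaled to the library size. All 10 of a list of HEK293T markers were tested and none was under 0.1 CPM; their summed level was 807, 827 and 833 CPM in the wild-type libraries and 575, 562 and 569 CPM in the EAF1-mutant libraries, with VIM the most abundant. In that list NEFM and VIM were among the genes that fell, and PODXL rose. Of 6 squamous markers of the HeLa type, 4 were under 0.1 CPM on average over the 6 libraries (KRT5, KRT17, KRT14 and TP63) and the sum lay between 1.18 and 2.01 CPM in all 6 libraries. Of 8 blood and fibroblast markers, PTPRC, CD3E, HBB and DCN were under 0.1 CPM on this average and the sum lay between 6.43 and 7.62 CPM, with COL1A1 the most abundant, COL3A1 and LUM lower and COL1A1 higher past both thresholds in mutant cells. The call of COL1A1 was lost without wild-type replicate 1, and where at least 1 CPM in 3 libraries was required, 1 blood or fibroblast marker in place of 2 was lower. Of 6 intestinal markers of the HCT116 type, CDX1 and CDH17 were under 0.1 CPM on this average, and the sum, between 44.3 and 48.8 CPM, came mainly from VIL1 and CDX2, which these cells held in both groups; EPCAM rose from 0.243 to 1.46 CPM. LUM and EPCAM were named after their values were seen. In bulk RNA, fewer cells with an RNA and less of it per cell cannot be told apart.

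EAF1 itself measured 57.5, 58.4 and 56.5 CPM in the wild-type libraries and 19.7, 17.9 and 18.8 CPM in the mutant libraries. The groups did not overlap. The fall was shared by its surroundings and beyond: the 84 tested genes that start within 5 Mb of EAF1 on chromosome 3 had a median log2 fold change of -1.41, and 52 of them were lower past both thresholds. In bins of 10 Mb, the median was between -1.56 and -0.56 in every bin from 0 to 90 Mb of the chromosome and 0.12 in the next. For this reason the neighbours within 5 Mb are given for each immediate early gene below. No DNA copy number was measured in the data used here.

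The start regions of the genes are shown for FOS, EGR1 and IER2, which rose, and for JUN, which did not, so that they can be compared. Each sequence is the run of 250 bases before the transcription start, taken from RefSeq on GRCh38.p14 and read 5′ to 3′ on the strand of the gene: FOS at chr14:75278578-75278827 (plus strand), EGR1 at chr5:138465229-138465478 (plus strand), IER2 at chr19:13150161-13150410 (plus strand) and JUN at chr1:58784048-58784297 (minus strand). Capitals mark matches, on either strand, to the searched motifs.
FOS: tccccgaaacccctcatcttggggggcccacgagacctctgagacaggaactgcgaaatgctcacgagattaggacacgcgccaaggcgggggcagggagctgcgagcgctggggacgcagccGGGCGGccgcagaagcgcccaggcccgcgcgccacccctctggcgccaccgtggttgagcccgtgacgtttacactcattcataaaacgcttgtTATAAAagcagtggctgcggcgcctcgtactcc
EGR1: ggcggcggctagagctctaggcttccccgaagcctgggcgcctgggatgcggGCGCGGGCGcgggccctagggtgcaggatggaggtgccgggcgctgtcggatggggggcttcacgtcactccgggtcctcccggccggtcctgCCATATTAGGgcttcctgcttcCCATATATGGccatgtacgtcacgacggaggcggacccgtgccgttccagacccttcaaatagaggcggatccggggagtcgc
IER2: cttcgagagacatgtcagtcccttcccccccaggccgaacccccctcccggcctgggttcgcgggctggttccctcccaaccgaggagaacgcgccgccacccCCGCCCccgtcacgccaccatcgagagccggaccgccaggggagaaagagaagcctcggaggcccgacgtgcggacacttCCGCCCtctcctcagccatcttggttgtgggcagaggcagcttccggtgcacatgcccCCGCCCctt
JUN: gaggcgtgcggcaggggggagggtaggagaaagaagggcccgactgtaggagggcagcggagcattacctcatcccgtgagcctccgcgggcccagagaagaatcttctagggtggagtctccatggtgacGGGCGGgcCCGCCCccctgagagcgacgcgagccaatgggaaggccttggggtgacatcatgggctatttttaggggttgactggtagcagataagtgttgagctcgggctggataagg

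The motifs searched were the CArG box bound by serum response factor, the TATA box TATAAA, the GC box GGGCGG, the EGR element GCGNGGGCG, which a GC box can overlap in part, the cyclic AMP response element TGACGTCA, the AP-1 element TGACTCA and the E-box CACGTG, each on both strands. Windows were searched for 6 of the 10 genes, the 4 shown and FOSB and JUNB. EGR1 was the gene with CArG boxes in its window, at 105 to 96 and at 83 to 74 bases before the start, and 1.16% of the 35116 promoter windows of this length held one. FOS, FOSB and JUNB had a TATA box between 33 and 25 bases before the start, against 10.7% of all windows. A GC box was found for FOS, FOSB, JUN and IER2, against 42.6% of all windows, and an EGR element for EGR1, against 8.41%. None of the 6 windows held an exact match to the cyclic AMP response element, the AP-1 element or the E-box. Such matches were in 1.65%, 4.2% and 6.34% of all windows. Sites that differ from the searched letters were not looked for, so such variants may be present. Within these windows, FOS, EGR1 and IER2 thus shared no motif of this list among all 3 of them. JUN had the same GC box as FOS and IER2. Elements further from the start than 250 bases were not searched for. These are matches of letters and say nothing of what binds there.

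Among the FOS subunits of AP-1, which dimerise with JUN proteins, FOS rose and FOSL1 fell. FOS (ENSG00000170345, chromosome 14, 75278826 to 75282230 in GRCh38) measured 0.867, 0.613 and 0.803 CPM in the wild-type libraries and 1.16, 1.44 and 1.49 CPM in the EAF1-mutant libraries. All mutant libraries lay above all wild-type libraries, on raw counts of 31 to 49 against 69 to 103. The log2 fold change was 0.84 (standard error 0.18, 95% interval 0.46 to 1.21, edgeR adjusted p = 4.63e-04). Among its 139 tested neighbours the median log2 fold change was 0.07, and 8 of them rose further than FOS.

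FOSL1 (ENSG00000175592, chromosome 11, 65892049 to 65900573), whose protein FRA1 lacks the transactivation domain of FOS, measured 1.01, 0.732 and 1.05 CPM in wild-type and 0.386, 0.576 and 0.449 CPM in mutant libraries. Here the order was the opposite of FOS, and the groups again did not overlap. This was a log2 fold change of -0.99 (standard error 0.22, 95% interval -1.46 to -0.53, edgeR adjusted p = 6.69e-04). None of its 341 tested neighbours fell as far, and their median was 0.08. FOSL1 had no more than 57 counts in any library, and it was not tested where at least 1 CPM in 3 libraries was required.

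FOSB (ENSG00000125740, chromosome 19, 45467995 to 45475179), the third FOS subunit of the list, measured 0.955, 0.890 and 0.860 CPM in wild-type and 1.21, 1.24 and 1.23 CPM in mutant libraries. The mutant libraries were all higher, but the log2 fold change of 0.44 (standard error 0.16, edgeR adjusted p = 0.0272) did not pass. The 366 tested neighbours of FOSB had a median of 0.18, and 96 of them had a larger log2 fold change. With library totals in place of TMM scaling, which moved the median of all tested genes from 0.01 to 0.13, FOSB passed at 0.56 (edgeR adjusted p = 5.82e-03). FOSB overlaps ERCC1, which lies on the other strand and measured 57.7 ± 1.73 CPM in wild-type and 49.6 ± 0.706 CPM in mutant cells (SD, n = 3). The library kit kept the strand, but no source used here says whether counting was by strand, so reads of the pair may not be fully separated.

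Neither JUN subunit passed both thresholds. JUN (ENSG00000177606, chromosome 1, 58776845 to 58784048), the main partner of FOS, measured 99.9, 96.1 and 106 CPM in wild-type and 107, 105 and 110.2 CPM in mutant libraries. The groups overlapped, and JUN was the only one of the 10 genes for which they did. Its log2 fold change was 0.09 (95% interval 0.01 to 0.18, edgeR adjusted p = 0.0553), beside a median of -0.15 over 74 neighbours.

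JUNB (ENSG00000171223, chromosome 19, 12791486 to 12793315), a JUN subunit with weaker transactivation, measured 6.99, 5.86 and 6.76 CPM in wild-type and 8.80, 8.56 and 7.63 CPM in mutant libraries. The mutant libraries were all higher. The log2 fold change of 0.34 (standard error 0.08, 95% interval 0.18 to 0.51, edgeR adjusted p = 0.0011) passed the limit on the adjusted p and not the one on fold. Its 347 neighbours had a median of 0.14, and 85 of them had a larger log2 fold change. JUNB lies inside HOOK2 on the opposite strand, and HOOK2 went from 14.2 ± 0.873 to 20.4 ± 0.597 CPM (SD, n = 3), a log2 fold change of 0.52, so the value of JUNB is uncertain in the same way as that of FOSB.

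ATF3 (ENSG00000162772, chromosome 1, 212565334 to 212620777), a stress-induced member of the ATF family that can pair with JUN, measured 14.2, 15.2 and 14.2 CPM in wild-type and 15.2, 15.4 and 15.2 CPM in mutant libraries. The highest wild-type library lay just under the lowest mutant library. The log2 fold change was 0.07 (95% interval -0.04 to 0.19, edgeR adjusted p = 0.285), so a change of the size seen for MYC lies outside the interval. The 76 neighbours of ATF3 had a median of -0.25.

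EGR1 and IER2 are targets of serum response factor. EGR1 (ENSG00000120738, chromosome 5, 138465479 to 138469303), a zinc-finger activator, had 19, 27 and 15 counts in wild-type and 40, 50 and 41 counts in mutant libraries, or 0.336, 0.534 and 0.280 CPM against 0.672, 0.899 and 0.594 CPM. Every mutant library was above every wild-type library, with the closest pair at 0.534 and 0.594 CPM. The log2 fold change was 0.91 (standard error 0.27, 95% interval 0.35 to 1.46, edgeR adjusted p = 6.43e-03). This call rested on few counts. It was lost without wild-type replicate 1 (log2 fold change 0.80), wild-type replicate 3 (0.71), EAF1-mutant replicate 1 (0.95) or EAF1-mutant replicate 2 (0.72), and in DESeq2 (0.90, adjusted p = 0.0392), where over all alternatives run the adjusted p of EGR1 ranged from 1.51e-03 to 0.0508. The 2 CArG boxes of the sequence above belong to this gene. Its 180 neighbours had a median of 0.09, and 30 of them rose further.

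IER2 (ENSG00000160888, chromosome 19, 13150411 to 13154911), a nuclear protein of the early response, had 722, 658 and 719 counts in the wild-type libraries and 1234, 1105 and 1447 counts in the mutant libraries. Scaled to library size this was 13.1 ± 0.337 CPM in wild-type cells against 20.5 ± 0.568 CPM in mutant cells (SD, n = 3). All mutant libraries lay above all wild-type libraries, by far more than the spread within either group. IER2 rose by 0.65 on the log2 scale (standard error 0.05, 95% interval 0.54 to 0.76, edgeR adjusted p = 3.46e-10). IER2 lies 358.9 kb from JUNB, and its 342 neighbours had a median of 0.14, with 42 of them rising further. An antisense long noncoding RNA that overlaps IER2, ENSG00000267598, had a log2 fold change of 0.60, and reads of the pair may not be fully separated.

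MYC (ENSG00000136997, chromosome 8, 127735434 to 127742951), a driver of growth and ribosome production, measured 100.4, 99.4 and 107 CPM in wild-type and 177, 182 and 182 CPM in mutant libraries. The lowest mutant library was far above the highest wild-type library. The log2 fold change was 0.82 (standard error 0.04, 95% interval 0.74 to 0.90, edgeR adjusted p = 1.79e-14). The 61 neighbours of MYC had a median of 0.02 and 2 of them rose further. CASC11, which overlaps MYC on the other strand, measured 0.0631 ± 0.0241 CPM in wild-type cells and 0.135 ± 0.0917 CPM in mutant cells (SD, n = 3) and was not tested.

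SNAI2 (ENSG00000019549, chromosome 8, 48917598 to 48921740), a repressor of epithelial genes known as Slug, measured 23.5, 24.6 and 23.3 CPM in wild-type and 2.60, 2.70 and 2.32 CPM in mutant libraries. The fall was 9.41-fold and the largest change of the 10 genes, with no overlap of the groups. On the log2 scale the change was -3.23 (standard error 0.07, 95% interval -3.38 to -3.09, edgeR adjusted p = 4.17e-20). None of the 24 tested neighbours fell as far; their median was 0.15, and 1 of them was lower past both thresholds. The annotation also lists an antisense noncoding RNA across SNAI2 that has no row of its own in the count table used here.

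**Figure D2:**
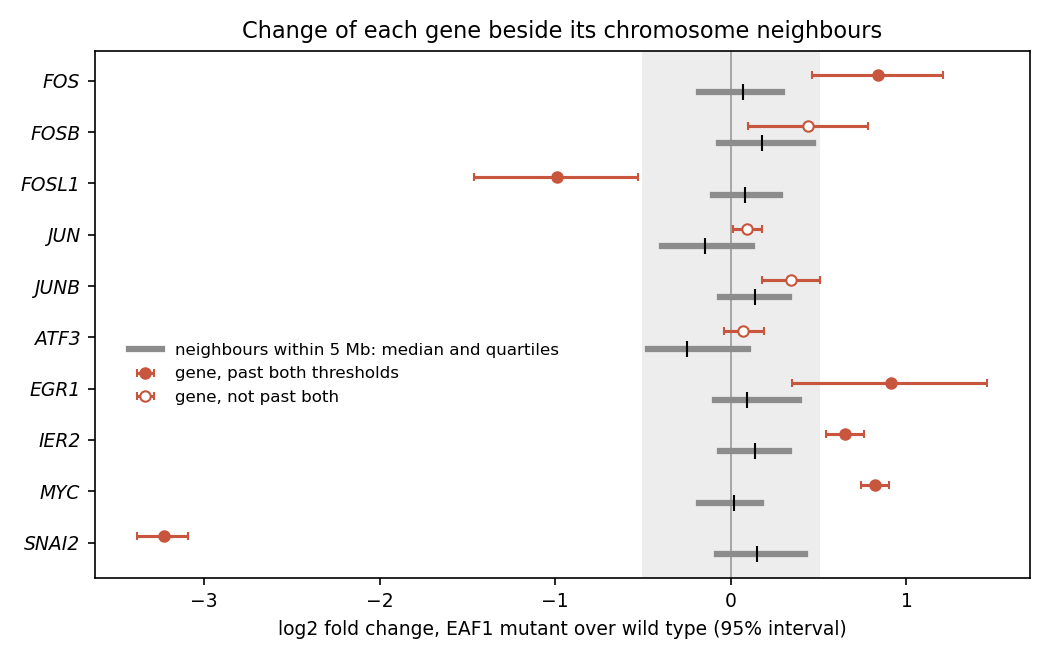
Log2 fold change of each of the 10 genes, EAF1 mutant over wild type, with its 95% interval (filled, past both thresholds; open, not), above the median and quartiles of the tested genes within 5 Mb in grey. The neighbours' medians lie between -0.25 and 0.18 and their quartiles between -0.47 and 0.47. Any gene past the fold threshold of 0.5 therefore lies outside these quartiles.

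The profile of SNAI2 over the 6 libraries, as log2 CPM centred on its mean, was most like those of BDH1 (root mean square difference 0.11), ABHD12B (0.21) and RASL10B (0.22) among 19219 genes with at least 1 CPM on average. BDH1, an enzyme of ketone body metabolism, had a log2 fold change of -3.30, from 3.55 to 0.360 CPM. ABHD12B had one of -2.98 and RASL10B, a small GTPase, one of -2.89. The 3 lie on chromosomes 3, 14 and 17, away from SNAI2.

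Per length, in CPM per kb of merged exons, the 10 genes spanned a wide range. In wild-type cells JUN led with 27.8 ± 1.32 (SD, n = 3 here and below), followed by MYC with 16.7 ± 0.667, SNAI2 with 7.26 ± 0.216 and IER2 with 4.25 ± 0.109. ATF3 with 3.63 ± 0.141 and JUNB with 3.57 ± 0.327 did not differ beyond their spread. FOSL1 with 0.492 ± 0.0909, FOS with 0.239 ± 0.0414, FOSB with 0.162 ± 0.00877 and EGR1 with 0.122 ± 0.0425 came last, the levels of FOSB and EGR1 overlapping within their spread. Against a median of 4.03 CPM per kb over 15439 tested protein-coding genes, JUN exceeded 92.3% of them and EGR1 exceeded 7.94%. FOS and EGR1, the classical immediate early genes, were thus among the scarcest RNAs of the list in wild-type cells on this scale. In EAF1-mutant cells the order at the top became a tie on this scale, with JUN at 29.6 ± 0.723 and MYC at 29.6 ± 0.450, and SNAI2 went from rank 3 to rank 6 with 0.774 ± 0.0604. FOS, at 0.428 ± 0.0562, came above FOSL1, at 0.249 ± 0.0511, the reverse of wild-type cells. FOSL1, EGR1 and FOSB did not differ beyond their spread in mutant cells.

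**Figure D3:**
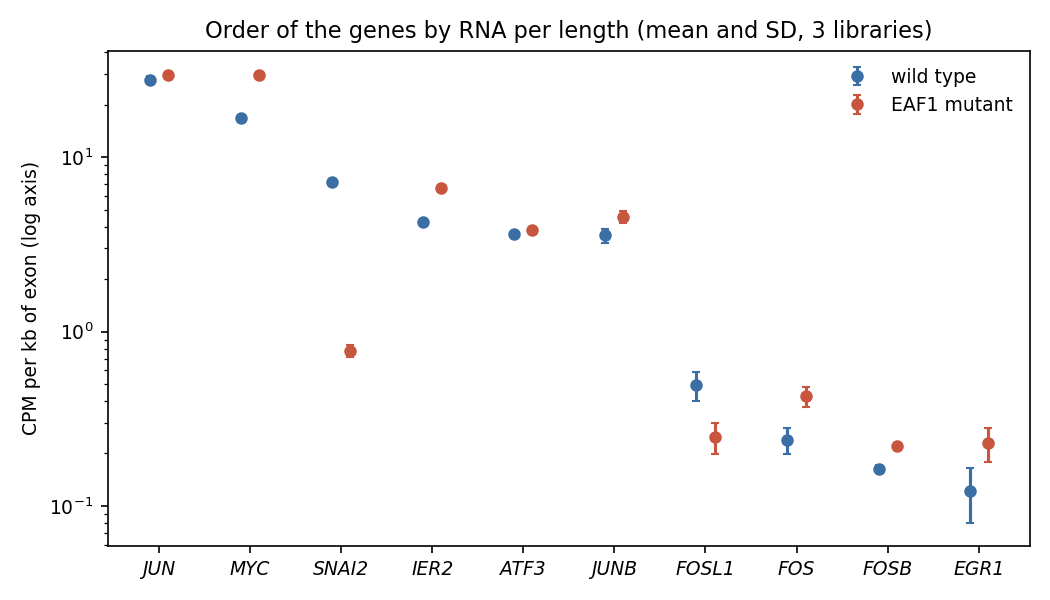
Mean CPM per kb of merged exons (log axis) with SD over 3 libraries for each gene in wild-type and EAF1-mutant cells, in the order of the wild-type means. JUN leads in wild-type cells, JUN and MYC are both at 29.6 in mutant cells, and SNAI2 drops from 7.26 to 0.774.

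MYC and JUN made up most of the counts of the list. Together they held 76.9% ± 0.854 of the counts of the 10 genes in wild-type cells and 85.1% ± 0.306 in mutant cells (SD, n = 3). The 10 genes as a whole took 0.0253% ± 0.00085 of all counts in wild-type cells and 0.0352% ± 0.0003 in mutant cells (SD, n = 3).

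Deviations within groups were compared from library to library. The median deviation of the 10 genes from their group means lay between -0.03 and 0.05 log2 units in every library. The largest single deviations were 0.49 for EGR1, 0.31 for FOSL1 and 0.28 for FOS, 3 genes of few counts, while FOSB, with about as many counts as FOS, stayed within 0.08 and IER2, ATF3, JUN and MYC within 0.07. Over the 6 deviations, Pearson's r with FOS ran from -0.75 for ATF3 to 0.84 for FOSL1, with no test.

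The genes share a compact structure, which played no part in how they were chosen. Their median span was 5843 bp, against 33200 bp over the tested protein-coding genes, and their median exon number was 3 against 9. JUN and JUNB have 1 exon. ATF3 is the exception in span, with 55444 bp. The ATTTA pentamer, a letter match for the element through which many early messages are destabilised, occurred in the 3′ UTR of 9 of the 10 genes, against 70.7% of the 15315 tested protein-coding genes with an annotated 3′ UTR; MYC had 6 copies, FOS 5, SNAI2 2 and IER2 0. Both SNAI2, which fell, and MYC, which rose, were thus short genes with this pentamer.

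The other immediate early genes, a list of 48, also held more rises than falls. Of 45 tested, 13 were higher and 3 lower past both thresholds, against 11.0% and 9.36% of all tested genes, 29 did not pass, and the median log2 fold change was 0.13. ID2, an inhibitor of basic helix-loop-helix factors and the gene of the list with the most RNA per length, rose from 83.6 ± 0.674 to 259 ± 10.0 CPM (SD, n = 3; log2 fold change 1.63). ARC (1.46) and KLF4 (1.02) followed among the genes with at least 1 CPM. CEBPB (-0.70), KLF6 (-0.57) and MCL1 (-0.52) fell. With library totals in place of TMM scaling, 14 genes of this list were higher and 1 was lower, in place of 13 and 3. In DESeq2, 9 were higher and 3 lower. The counts were the same where at least 1 CPM in 3 libraries was required. KLF6 lies in a region of chromosome 10 whose 50 tested neighbours had a median of -0.49, and MCL1 in one of chromosome 1 with -0.26.

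Among 19 tested genes of the rest of the AP-1 and ATF family, 3 rose and 2 fell, against 11.0% and 9.36% of all tested genes, with a median of 0.30; with library totals 6 rose. FOSL2, the fourth FOS subunit, rose from 5.16 ± 0.756 to 13.6 ± 0.303 CPM (SD, n = 3; log2 fold change 1.40), so that among FOS, FOSB, FOSL1 and FOSL2 the one lower subunit was FOSL1. MAFA (2.46) also rose, and JDP2 (-1.07), a repressor of AP-1, and ATF4 (-0.68) fell. ATF4, the most abundant of the family per length, drives ATF3 in the integrated stress response. In the list of 11 partners of ATF3 in that response, 4 fell and 0 rose by edgeR, against 9.36% and 11.0% of all tested genes, with a median of -0.33; 1 was higher at an unadjusted p under 0.05, and DESeq2 called 0 higher. The 4 were ATF4, DDIT4 (-1.37), the asparagine synthetase gene ASNS (-1.22) and CHAC1 (-1.05). ATF3 itself, at 0.07, did not pass.

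Most genes that carry the ERK signal to these promoters did not pass both thresholds. Of 25 tested, 3 fell and 0 rose by edgeR, against 9.36% and 11.0% of all tested genes, with a median of -0.04; 4 were higher at an unadjusted p under 0.05, and DESeq2 called 0 higher. BRAF (-0.73), a kinase of the cascade, lay among lower neighbours, with a median of -0.60, whereas RPS6KA3 (-0.72) did not, with 0.12. The list also holds the beta-actin gene ACTB, which is not part of the ERK cascade. ACTB had the most RNA per length in this list and a log2 fold change of -0.42. Among 15 feedback inhibitors of ERK and EGR1, 4 fell and 3 rose, with a median of 0.27, against 9.36% and 11.0% of all tested genes. The 3 rises became 1 in DESeq2 and without wild-type replicate 1, wild-type replicate 3, EAF1-mutant replicate 2 or EAF1-mutant replicate 3. The ERK phosphatases DUSP7 (-1.41, neighbours -0.77; in the first 90 Mb of chromosome 3, where EAF1 lies) and DUSP9 (-1.01, neighbours -0.31) and SPRED1 (-0.86) fell, and DUSP4 (0.87) and SPRED3 (0.54) rose. Of the corepressors of EGR1, NAB1, the list's most abundant gene per length on the mean of both groups, had 0.32, and NAB2, named after its value was seen, fell (-0.68). Of 15 JNK and p38 kinases, MAPK11 (0.66) rose and MAPKAPK2 (-0.51, neighbours -0.29) fell, with a median of -0.07 and MAPK14 the most abundant per length on the mean of both groups; 1 of 15 each way was below the shares of all tested genes. The count of rises was 2 with library totals, and the count of falls was 0 without EAF1-mutant replicate 1, with library totals and where at least 1 CPM in 3 libraries was required.

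**Figure D4:**
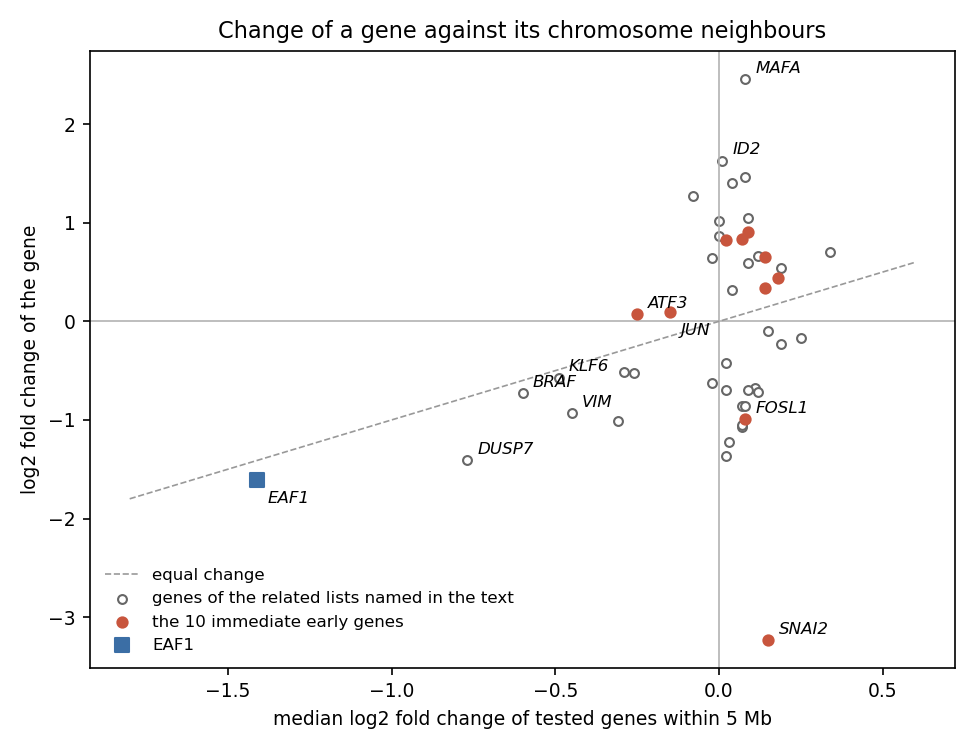
Log2 fold change of each gene (vertical) against the median of the tested genes within 5 Mb (horizontal). Drawn are the 10 immediate early genes, EAF1 and most genes of the related lists that are named in the text. NAB2 and MAX are among those not drawn. EAF1, DUSP7 and BRAF lie among neighbours that fell, while none of the 10 genes has a neighbours' median under -0.25.

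In the MYC network, 4 of 12 partners and antagonists rose and 0 fell by edgeR, against 11.0% and 9.36% of all tested genes, with a median of 0.30; 2 were lower at an unadjusted p under 0.05, and DESeq2 called 0 lower. Among those with at least 1 CPM, MYCL (0.70, neighbours 0.34), the antagonist MXD1 (0.64) and MLXIPL (0.59) rose. MXD3, the most abundant per length, had -0.10 and MAX, the obligate partner of MYC, went from 41.8 to 40.7 CPM with a log2 fold change of -0.04; MAX was named after its value was seen. Around SNAI2, 2 of 9 regulators and markers of the epithelial-mesenchymal transition rose and 1 fell (2 without wild-type replicate 1), against the same shares, with a median of -0.22. CDH1, the E-cadherin gene that SNAI2 represses, rose from 1.31 ± 0.102 to 3.17 ± 0.195 CPM (SD, n = 3; log2 fold change 1.27), and SNAI1, the paralog of SNAI2, rose from 0.797 ± 0.0713 to 1.66 ± 0.181 CPM (1.05). VIM, the mesenchymal intermediate filament gene and the most abundant of the list per length, fell (-0.93), with a median of -0.45 over its 64 neighbours.

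Heat shock genes, another class of rapidly induced genes, held falls and no rises past both thresholds. Of 14, 5 fell and 0 rose by edgeR, with a median of -0.29; 1 was higher at an unadjusted p under 0.05, and DESeq2 called 0 higher. Of all tested genes 9.36% fell and 11.0% rose, and with library totals 3 of the 14 fell in place of 5. The falls were led by HSPB1 (-0.86), HSPE1 (-0.70) and HSP90AB1 (-0.63). HSPA1B, the most abundant per length, had -0.23, and its reads may be shared with the near-identical HSPA1A. Whether the lists differed from one another was not tested.

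**Figure D5:**
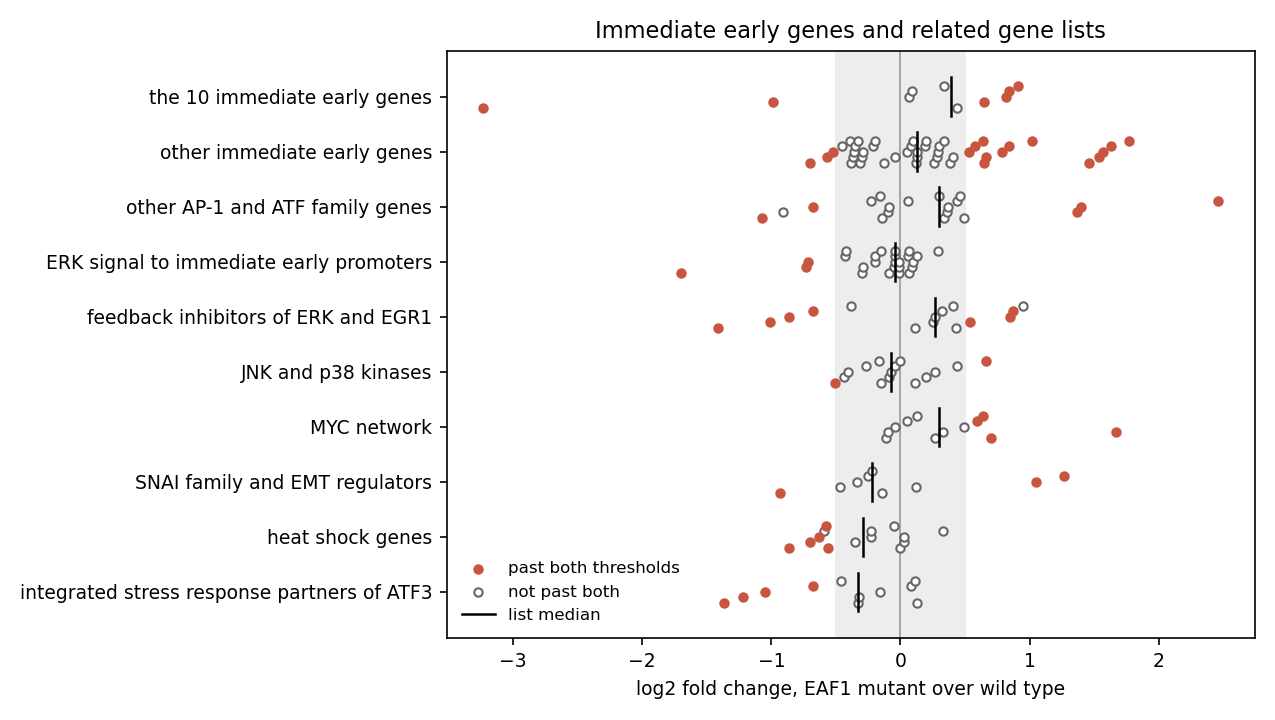
Log2 fold change of each tested gene, EAF1 mutant over wild type, in the list of 10 and in 9 related lists (filled, past both thresholds; open, not; bar, list median). The medians run from -0.33 for the partners of ATF3 to 0.39 for the 10 genes.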

How the data were processed

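RNA-seq counts of ribosomal RNA-depleted total RNA from 3 wild-type and 3 EAF1-mutant libraries were used. The authors demultiplexed reads with bcl2fastq 2.18, trimmed them, aligned them with HISAT2 (GRCh38), and deposited raw read counts per Ensembl gene made with Rsubread. The submitters' processing notes name DESeq2 1.28.1 and, for trimming, Trimmomatic 0.38. The study's methods name Trim Galore as the trimmer. The library kit was stranded; no source used here states the strand or multi-mapping settings of the counting. Symbols, positions and exons came from GENCODE release 44, which matched 57754 of 58395 identifiers; the 641 others held 2.81% of the counts. Genes were filtered with filterByExpr, scaled by TMM and tested with the quasi-likelihood F test of edgeR 4.0.16 (R 4.3.3), with p-values adjusted by Benjamini-Hochberg over 28025 genes; log2 CPM used a prior count of 2, and intervals used the standard error and t quantiles. The fit was also run on simulated data with known changes, the outcome of which is not given here. DESeq2 1.42.0, other scaling and filters, an adjusted p of 0.05 with no minimum fold, a replicate block and each library left out were alternatives. Tables and figures used Python 3.11.15. The study's methods call its replicates biological, but no label says that they were separate cultures, so p-values measure the spread between these libraries; replicate pairs differed by more than sampling noise. Named genes were all 10, EAF1, up to 3 rises and 3 falls per list among called genes with at least 1 CPM on average, each list's most abundant gene per length, and the 3 profiles nearest to SNAI2. Some genes that this rule names are not reported here. The members and lists were chosen with earlier results of these data known. PRO-seq, 4C-seq, ChIP-seq and in situ biotinylation libraries were not analysed here.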

Additional observations from a re-analysis of the deposited data

How the results depend on the processing

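The 6 called genes lost the call in 5 of 64 combinations of gene and alternative, all of them for EGR1, and 0 of 108 over all 10 genes changed direction; FOSB gained a call with library totals. With library totals in place of TMM, the median of the 10 genes was 0.51, beside 0.13 over all tested genes, the share of higher genes among all calls was 69.4% in place of 53.9%, and 1 of the other immediate early genes was lower in place of 3. Where at least 1 CPM in 3 libraries was required, EGR1 and FOSL1 were not tested and 1 of the 10 genes was lower. With that filter, and in DESeq2, 9 other immediate early genes were higher in place of 13. At an adjusted p of 0.05 with no minimum fold, 14420 genes were called in place of 5695, and 19 other immediate early genes were higher and 14 lower. Leaving out 1 library at a time gave 3 to 4 higher and 2 lower genes of the 10, medians of 0.34 to 0.43, 5315 to 5588 calls in all, and 10 to 13 higher and 3 lower other immediate early genes. Same-numbered libraries did not deviate together (r = -0.005, -0.017 and 0.01); with the replicate block 5686 genes were called and the 10 genes kept 4 higher and 2 lower. FOS, FOSB, FOSL1 and EGR1 had few counts, which limits their precision.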
